A study of Mus musculus with 24 samples.

Results

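The 8 genes described here encode secreted factors of the VEGF and angiopoietin families that act on blood and lymphatic vessels: Vegfa, Vegfb, Vegfc, Pgf, Angpt1, Angpt2, Angptl2 and Angptl4. They were chosen by name, and their rows were taken by symbol and Ensembl identifier from count tables that listed 55471 genes in batch 1 and 13915 genes in batch 2. All 8 members had a row in batch 1 and 6 had one in batch 2, where Vegfc and Angpt1 were not listed. The same 6 had enough reads to be tested in each batch.

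EO771 is a mammary carcinoma line from a spontaneous tumour of a C57BL/6 mouse, and RNA was taken from 4 derivatives of it, grown in culture, in 24 libraries and 2 batches. X2 cells carried the control vector, introduced by retroviral transduction. CCR7 cells had been transduced with the retroviral pLNCX2 vector holding mouse Ccr7 cDNA and the tdTomato reporter, were enriched by sorting for both proteins, and were PDPN-negative, while CCR7-PDPN cells were the PDPN-positive sort of the same transduced cells. X2-PDPN cells were sorted from X2 for PDPN that had appeared spontaneously. The reporter was not particular to CCR7 cells: the paper also shows tdTomato in an X2 tumour and reports checking its level in the derivatives. G418 was used for selection, and no derivative was cloned. The first batch was made of X2, CCR7 and CCR7-PDPN, the second of X2, X2-PDPN and CCR7-PDPN, with 4 libraries of each. The 4 libraries were technical replicates of 1 population, so every p-value below measures the spread between such libraries and not that between independently made populations.

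Library totals lay between 22275468 and 35721027 counts. Ccr7 had 61655 to 100109 reads in every CCR7 and CCR7-PDPN library and at most 29 in any other. Pdpn had 576 to 924 reads in the PDPN-sorted libraries and at most 20 elsewhere, so each library matched its label. Of 5 markers of the line, Krt8, Vim and Twist1 were high, whereas the epithelial genes Krt18 and Epcam had at most 9 and 2 reads in a batch 1 library. Leukocyte markers summed to 6.49 to 7.45 counts scaled to library size (CPM) in X2 and 0.643 to 0.993 in CCR7-PDPN of batch 1, with Cd3e at 0 reads. Of 8 blood endothelial markers, Egfl7 had group means of 49.01 to 61.87 CPM and made up nearly all of their sum of 49.4 to 66.5 CPM, while Pecam1, Cdh5 and Esam had group means below 0.5 CPM, Emcn at most 1 read and Cldn5 and Tie1 0 reads in a batch 1 library, and lymphatic endothelial markers summed to 0.244 to 0.677 CPM. Vwf, also of the blood endothelial list, had group means of 1.007 to 1.258 CPM. Fibroblast and pericyte markers summed to 206 to 259 CPM. That sum came from Pdgfra, with group means of 150.1 to 180.5 CPM, and Pdgfrb, with 55.52 to 81.38. Dcn, Rgs5 and Lum of the same list had at most 3, 1 and 0 reads in a batch 1 library. The part of other cell types in the results below was not tested.

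VEGF-A, the best known of these factors, acts through KDR and FLT1 on endothelial cells to drive vessel growth and permeability, and VEGF-B and placental growth factor (PGF) bind FLT1. VEGF-C acts chiefly on FLT4 of lymphatic endothelium. Angiopoietin 1 and 2 are ligands of the receptor TEK, with angiopoietin 2 often acting as an antagonist, and the angiopoietin-like proteins share their fold but do not bind TEK: ANGPTL2 is an inflammatory and pro-angiogenic factor, and ANGPTL4 inhibits lipoprotein lipase and is a target of hypoxia and of PPAR receptors.

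The promoters of the most abundant members and of Vegfc are shown because these genes carried the levels and differences described below. RefSeq (GRCm38.p6) gave 7 promoter windows for 5 of the 8 members, with 2 starts each for Vegfa and Pgf. The 250 bases before the start, for Vegfa the start at the gene's 5′ end, are printed 5′ to 3′ on the gene's strand, with no annotated exon inside. Capitals mark the GC box GGGCGG on either strand.
Angptl2, chr2:33215711-33215960, plus strand: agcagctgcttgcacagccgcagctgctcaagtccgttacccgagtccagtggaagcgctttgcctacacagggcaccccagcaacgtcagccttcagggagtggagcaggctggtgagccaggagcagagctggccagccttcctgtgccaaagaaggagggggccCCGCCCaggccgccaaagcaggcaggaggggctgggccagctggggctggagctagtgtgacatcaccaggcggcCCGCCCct
Vegfa, chr17:46032378-46032627, minus strand: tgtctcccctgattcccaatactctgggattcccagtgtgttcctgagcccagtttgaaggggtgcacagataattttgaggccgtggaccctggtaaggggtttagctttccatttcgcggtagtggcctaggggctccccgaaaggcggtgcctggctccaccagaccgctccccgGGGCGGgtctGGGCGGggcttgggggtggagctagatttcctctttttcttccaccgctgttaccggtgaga
Vegfb, chr19:6987652-6987901, minus strand: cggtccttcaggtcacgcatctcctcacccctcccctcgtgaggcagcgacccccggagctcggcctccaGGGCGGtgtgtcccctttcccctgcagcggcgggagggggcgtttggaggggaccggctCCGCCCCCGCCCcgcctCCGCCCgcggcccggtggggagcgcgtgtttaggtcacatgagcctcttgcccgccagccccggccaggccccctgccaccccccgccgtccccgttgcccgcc
Vegfc, chr8:54077282-54077531, plus strand: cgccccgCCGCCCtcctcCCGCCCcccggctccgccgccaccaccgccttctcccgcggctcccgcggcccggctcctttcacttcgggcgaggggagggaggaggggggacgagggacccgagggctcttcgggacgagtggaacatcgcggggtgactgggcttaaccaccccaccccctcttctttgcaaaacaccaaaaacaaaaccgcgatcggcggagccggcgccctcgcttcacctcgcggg
The GC box, a site known to bind Sp1, occurred in all 4 windows shown and in 32.7% of 32851 windows of the same length. The hypoxia response core ACGTG was in none of these 4, but it was in the window of the second, downstream Vegfa start, which overlaps a Vegfa exon and is not printed, and in 16.6% of all windows. The related GCGTG was in the window of Vegfb, in that of the second Vegfa start, in 1 of the 2 Pgf windows and in 28.2% of all. The AP-1 letters TGACTCA were in none of the 4 and in 4.46% of all. A match here is a match of letters and was not tied to binding.

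Levels are given first per length, as TPM, in which counts are divided by gene length and scaled to the same total in each library. Vegfa stood at 182.3, 189.1, 177.5 and 193.2 TPM in the X2 libraries of batch 1, and Angptl2 at 167.9, 166.7, 165.0 and 164.7 TPM. Vegfb stood at 160.6, 141.9, 145.9 and 157.8 TPM in the same libraries. These 3 factors were the abundant ones, and Angptl4 followed at 34.7-fold less than Vegfb by mean TPM in X2 of batch 1. Pgf and Angpt2 had group means of 1.18 to 1.68 and 0.28 to 0.80 TPM across the 6 groups. The order of the 3 abundant factors changed between derivatives: Vegfa was above Angptl2 in every X2 library of both batches, Angptl2 overlapped Vegfa in X2-PDPN, and Angptl2 was the lowest of the 3 in all CCR7 and CCR7-PDPN libraries.

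**Figure D1:**
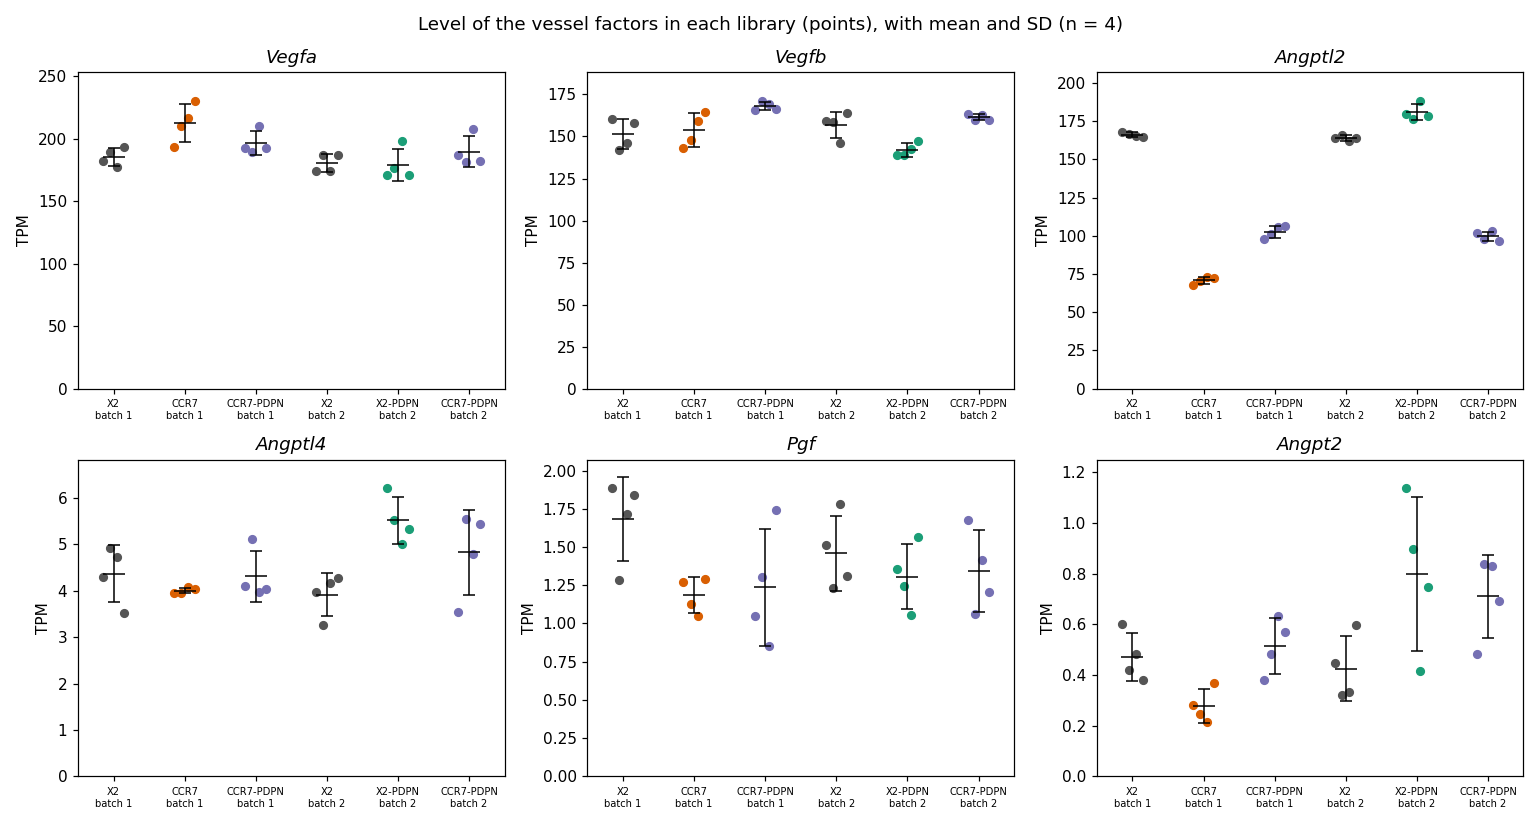
TPM (y axis) of the 6 factors with rows in both batches in each library (points) of the 6 groups (x axis), with the mean and SD as a bar (n = 4). Angptl2 sits between 67.59 and 73.01 TPM in CCR7 and between 164.7 and 167.9 TPM in X2 of the same batch.

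Angptl2 (ENSMUSG00000004105, chromosome 2, 33216069 to 33247717, plus strand, GRCm38) had the largest log2 change of the 6 members tested with edgeR. In batch 1 its 4 X2 libraries had 283.4, 277.4, 277.0 and 276.8 CPM, the 4 CCR7 libraries had 114.0, 117.4, 122.5 and 120.6, and the 4 CCR7-PDPN libraries had 165.9, 171.8, 179.4 and 183.4. The 3 groups did not overlap, with CCR7 lowest, CCR7-PDPN between and X2 highest. Angptl2 was 2.35-fold lower in CCR7 than in X2, a log2 fold change of -1.23 (SE 0.03, edgeR quasi-likelihood test, Benjamini-Hochberg adjusted p = 2.1e-17). It was the only member of 6 tested to pass both limits used here (adjusted p below 0.05, log2 change beyond 1 either way), which 6.48% of the 13261 genes tested passed.

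PDPN-positive cells had more Angptl2 than PDPN-negative cells carrying the same vector. The log2 change was 0.56 (SE 0.03, edgeR adjusted p = 5.34e-11) for CCR7-PDPN against CCR7. In batch 2 the X2 libraries had 277.9, 278.7, 270.4 and 277.4 CPM and the X2-PDPN libraries 301.2, 298.6, 310.4 and 301.4, without overlap. That difference was 0.13 on the log2 scale (SE 0.03, edgeR adjusted p = 2.36e-05). The 2 differences themselves differed by 0.43 (SE 0.04, edgeR adjusted p = 8.12e-11), being larger with CCR7, but one was measured in batch 1 and the other in batch 2. Batch and Ccr7 status cannot be told apart in that contrast.

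CCR7-PDPN cells stayed below the control cells. In batch 2 they had 174.8, 166.3, 173.9 and 166.5 CPM of Angptl2, all under every X2 and X2-PDPN library. The log2 change against X2 was -0.67 (SE 0.03, edgeR adjusted p = 2.14e-13) in batch 1 and -0.70 (SE 0.03, edgeR adjusted p = 4.06e-26) in batch 2, and against X2-PDPN it was -0.83 (SE 0.03, edgeR adjusted p = 4.73e-29). The change against X2 differed between batches by 0.03, with a 95% interval from -0.06 to 0.11.

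Angptl2 lies inside Ralgps1, which is on the opposite strand, and their exons do not overlap. Ralgps1 was also lower by adjusted p in CCR7 against X2, at -0.56 on the log2 scale, and in X2-PDPN against X2, at -0.61, where Angptl2 was higher. The strand setting of the counting is not given in the sources used here. The 137 genes tested within 5 Mb on each side had a median log2 change of 0.06 in CCR7 against X2, and 49 of them were higher and 31 lower by adjusted p, where 49.3% of all genes passed. The 3 genes whose levels, centred on X2 within each batch, went most closely with Angptl2 over the 24 libraries were Cfap45 (Pearson r = 0.9926), Pdlim2 (0.9781) and Plekhh2 (0.9773), among 10531 genes compared. These libraries share derivatives, so the values describe the pattern only.

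**Figure D2:**
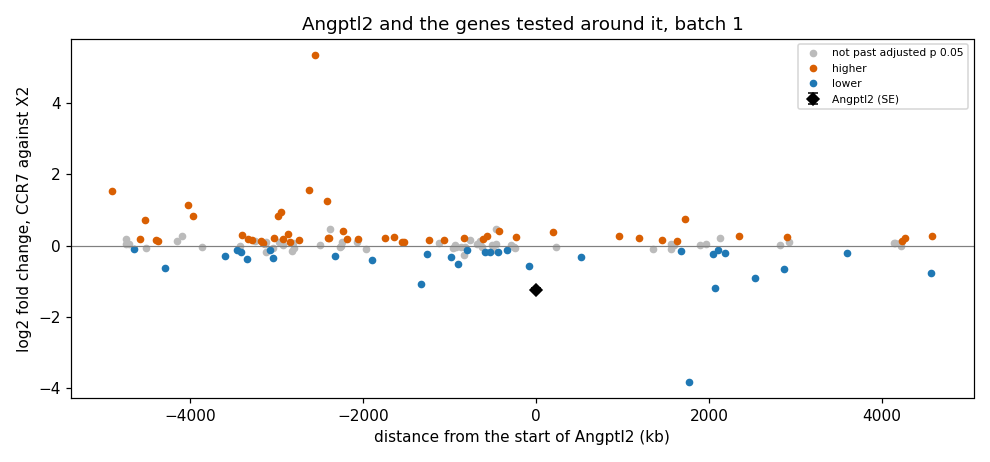
Log2 fold change of CCR7 against X2 in batch 1 (y axis) for Angptl2 (diamond, SE) and the 137 genes tested around it, by distance from its start in kb (x axis). Angptl2 is at -1.23, and the neighbours have a median of 0.06.

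Vegfa (ENSMUSG00000023951, chromosome 17, 46016993 to 46032369, minus strand) moved little. X2 libraries of batch 1 had 209.7, 214.5, 203.2 and 221.3 CPM and CCR7 libraries 222.0, 239.4, 247.9 and 261.1, so the lowest CCR7 library was just above the highest X2 library. The log2 change of 0.19 (SE 0.04, edgeR adjusted p = 0.00116) was a rise of 1.14-fold. CCR7-PDPN had 222.5, 219.8, 243.8 and 227.0 CPM, which overlapped both groups. Its change against X2 was 0.11 (SE 0.04, edgeR adjusted p = 0.0454) in batch 1 and 0.09 (SE 0.05, edgeR adjusted p = 0.127) in batch 2. The first was lost in 9 of 19 alternatives (edgeR adjusted p up to 0.174), namely upper-quartile factors, the filter of 1 CPM in 4 libraries, and the fits without X2 replicate 1, 2 or 3, CCR7 replicate 2 or 3, or CCR7-PDPN replicate 3 or 4. In X2-PDPN against X2 the change was -0.02 with a 95% interval from -0.13 to 0.09.

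Vegfb (ENSMUSG00000024962, chromosome 19, 6982473 to 6987651, minus strand) differed in the PDPN-positive cells by small amounts and in opposite directions. CCR7-PDPN of batch 1 had 71.77, 74.37, 73.50 and 73.30 CPM against 61.52, 63.29, 68.17 and 69.86 in CCR7, a log2 change of 0.16 (SE 0.05, edgeR adjusted p = 0.00823) without overlap. X2-PDPN had 59.46, 60.07, 60.01 and 63.70 CPM against 68.75, 68.10, 62.30 and 70.91 in X2 of batch 2, a log2 change of -0.15 (SE 0.04, edgeR adjusted p = 4.19e-04), with 1 library of each overlapping the other group. The difference between these changes was 0.31 (SE 0.06, edgeR adjusted p = 4.2e-05), again set between batches. Its size depended on the setting: it ranged from 0.20 to 0.34 over 31 alternatives, and from 0.28 to 0.34 with a library left out. CCR7-PDPN was above X2-PDPN by 0.21 (SE 0.04, edgeR adjusted p = 2.38e-06) within batch 2. Against X2, CCR7-PDPN was at 0.17 in batch 1, past the adjusted p, and at 0.06 in batch 2, not past it. The gap between batches was 0.11 and did not pass.

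Pgf (ENSMUSG00000004791, chromosome 12) and Angpt2 (ENSMUSG00000031465, chromosome 8) were read 19 to 42 and 7 to 34 times per library. Pgf was lower in CCR7 than in X2 by -0.53 on the log2 scale (SE 0.22, edgeR adjusted p = 0.0484), at 22 to 32 reads against 24 to 42, and its other 5 comparisons did not pass. Angpt2 had 17, 10, 15 and 11 reads in X2 of batch 1, 9, 7, 7 and 8 in CCR7, and 12, 15, 18 and 17 in CCR7-PDPN. Its log2 change was -0.79 (SE 0.31, edgeR adjusted p = 0.0397) in CCR7 against X2 and 0.93 (SE 0.30, edgeR adjusted p = 0.0167) in CCR7-PDPN against CCR7. In CCR7 against X2, Pgf no longer passed in 11 of 19 alternatives (adjusted p up to 0.119) and Angpt2 in 8 of 18 (up to 0.127), among them DESeq2, with adjusted p of 0.0821 and 0.10. In CCR7-PDPN against CCR7, Angpt2 did not pass in 3 of 18 (edgeR adjusted p up to 0.059), namely with no filter on low counts and without replicate 3 of either group.

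In batch 2 Angpt2 had 34, 32, 12 and 20 reads in X2-PDPN, 11, 26, 26 and 19 in CCR7-PDPN and 12, 9, 10 and 18 in X2. It was higher than in X2 by 0.91 (SE 0.30, edgeR adjusted p = 0.00831) and by 0.78 (SE 0.31, edgeR adjusted p = 0.0247), with overlapping groups in both. Without X2-PDPN replicate 1 the first was 0.70 (edgeR adjusted p = 0.0625). The second did not pass without X2 replicate 2 or 3 or CCR7-PDPN replicate 2 or 3 (edgeR adjusted p up to 0.078). In batch 1 the same comparison, CCR7-PDPN against X2, was at 0.14 for Angpt2 and did not pass, so the rise was seen in batch 2 only. Angpt2 lies inside Mcph1 on the opposite strand, and the 39 or 40 genes tested within 5 Mb of it had median log2 changes of -0.38 in CCR7 against X2 and -0.48 in CCR7-PDPN against X2 of batch 2.

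Angptl4 (ENSMUSG00000002289, chromosome 17, 33773750 to 33781830, minus strand) had 117, 112, 141 and 98 reads in X2 of batch 1 and 121, 107, 128 and 84 in CCR7, and its 3 comparisons in batch 1 did not pass. In batch 2 it had 102, 87, 120 and 123 reads in X2 and 178, 189, 139 and 137 in X2-PDPN, a log2 change of 0.49 (SE 0.11, edgeR adjusted p = 3.31e-04) with no overlap in CPM. CCR7-PDPN of batch 2 was above X2 by 0.33 (SE 0.12, edgeR adjusted p = 0.0126) with overlap. Without X2 replicate 2, or CCR7-PDPN replicate 2 or 4, the latter did not pass (edgeR adjusted p up to 0.0774). In batch 1 the same comparison, CCR7-PDPN against X2, was at 0.009 for Angptl4. Of the 8 genes of its PPAR axis, 4 were tested in X2-PDPN against X2, and Ppard and Rxra were higher and none lower by adjusted p, where 56.8% of all genes passed in either direction. The median of the 4 was 0.15 against 0.00 over all genes tested. Lpl, Pdk4, Ppara and Pparg had at most 1 read in a batch 1 library and were not tested.

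**Figure D3:**
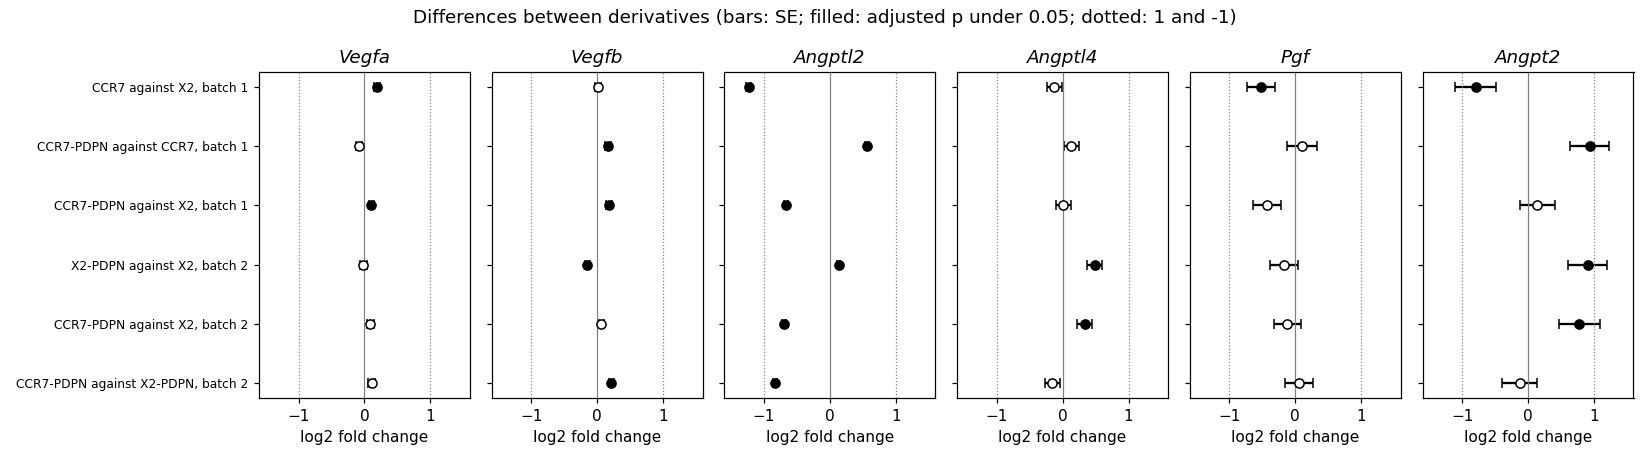
Log2 fold change (x axis) of the 6 tested factors in the 6 comparisons within a batch (y axis), with SE bars, filled where the edgeR adjusted p is under 0.05, and dotted lines at 1 and -1. Angptl2 in CCR7 against X2, at -1.23, is the only point past a dotted line.

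Vegfc (ENSMUSG00000031520, chromosome 8, 54077606 to 54187096, plus strand) was read 2, 5, 11 and 5 times in the X2 libraries of batch 1 and 0 times in each of the 4 CCR7 and the 4 CCR7-PDPN libraries. Setting the lower 95% Poisson limit of the 23 X2 reads against a limit of 3 counts over each other group, its CPM was at least 5.06-fold lower in CCR7 and at least 5.28-fold lower in CCR7-PDPN. With the 23 reads taken as exact these folds were 7.95 and 8.31. The exact permutation test of 4 against 4 libraries gave p = 0.0286 for each (two-sided), the smallest p that 70 splits allow, and 0.0286 after adjustment over the 2. Vegfc was under the filter on low counts and so was not in the edgeR fit, and it could not be compared in batch 2. Angpt1 (ENSMUSG00000022309, chromosome 15) was not read in any of the 12 batch 1 libraries (0 reads, a limit of 0.0266 CPM over the X2 group, for counting error only), and its exons overlap those of Gm17473.

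**Figure D4:**
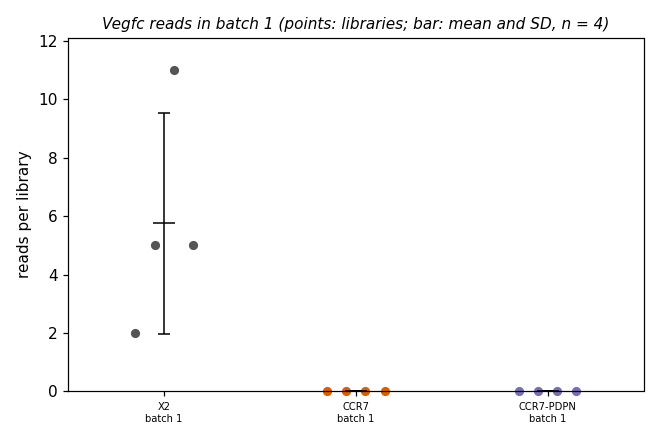
Reads of Vegfc (y axis) in each batch 1 library (points) of the 3 groups (x axis), with mean and SD as a bar (n = 4). X2 libraries hold 2 to 11 reads and all 8 libraries of CCR7 and CCR7-PDPN hold 0.

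Counted over the 6 members tested, an adjusted p under 0.05 was reached by 4 in CCR7 against X2 (49.3% of all genes tested), 3 in CCR7-PDPN against CCR7 (41.6%), 3 in CCR7-PDPN against X2 of batch 1 (60.9%) and of batch 2 (64.8%), 4 in X2-PDPN against X2 (56.8%) and 2 in CCR7-PDPN against X2-PDPN (63.2%). The groups of libraries did not overlap for 3 of 6 members in CCR7 against X2 (44.1% of all genes tested), 3 in CCR7-PDPN against CCR7 (34.1%), 2 and 1 in CCR7-PDPN against X2 of batches 1 and 2 (58.7% and 57.5%), 2 in X2-PDPN against X2 (50.6%) and 2 in CCR7-PDPN against X2-PDPN (54.8%). In the contrast of the PDPN differences with and without CCR7, 2 of 6 passed the adjusted p (40.8%) and 0 both limits (5.44%) by edgeR and by DESeq2, with 3 at an unadjusted edgeR p under 0.05. Outside CCR7 against X2 the count passing both limits was 0 in each comparison by edgeR and by DESeq2, where 3 or 4 members had an unadjusted edgeR p under 0.05, and the corresponding shares of all genes were 3.27%, 9.45%, 5.05%, 9.63% and 9.16% in the order CCR7-PDPN against CCR7, CCR7-PDPN against X2 of batch 1, X2-PDPN against X2, CCR7-PDPN against X2 of batch 2 and CCR7-PDPN against X2-PDPN.

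The receptors of these ligands were nearly unread in the tumour cells. Flt1, Kdr, Flt4 and Tek had at most 8 reads in a batch 1 library, and Nrp1 and Tie1 had 0. Nrp2, a co-receptor that binds VEGF-C, was the exception at group means of 133.7 to 169.2 TPM. It fell in CCR7-PDPN against CCR7 by 0.30 on the log2 scale (edgeR adjusted p = 0.00504). The CCR7 libraries spread from 443 to 598.6 CPM and were higher than X2 by 0.204, past the adjusted p. Against X2, CCR7-PDPN was at -0.098 in batch 1, not past it, and -0.108 in batch 2, past it. X2-PDPN was at -0.142 against X2, also past it.

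Of 7 other ligands, 2 were tested in each batch, and Angptl6 was lower in PDPN-positive cells. It fell from 22.98 ± 3.35 TPM in X2 to 9.15 ± 0.89 TPM in X2-PDPN of batch 2 (SD, n = 4 each), a log2 change of -1.33 (SE 0.10, edgeR adjusted p = 1.53e-14). In CCR7-PDPN against CCR7 the change was -1.26 (SE 0.21, edgeR adjusted p = 6.52e-04). Vegfd, the other ligand tested, had group means of 3.41 to 5.508 TPM. By adjusted p it was higher in X2-PDPN than in X2, at mean CPM of 3.538 against 2.409. Of the 9 genes that process ligands, Plau, the urokinase-type plasminogen activator, was lower in CCR7 than in X2 by -1.22 on the log2 scale (SE 0.06, edgeR adjusted p = 1.69e-13).

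Of 9 inhibitors of vessel growth, 5 were tested in each batch, and 2 were called higher and none lower in X2-PDPN against X2 (5.05% of all genes called), with 1 higher and 2 lower in CCR7-PDPN against X2 of batch 2 (9.63%). The 2 called higher in X2-PDPN were Serpinf1 and Sema3a, and the 2 called lower in CCR7-PDPN were Thbs2 and Sema3a. Sema3a had few reads in batch 2: 10 to 13 in X2, 27 to 42 in X2-PDPN and 2 to 7 in CCR7-PDPN. Thbs2, which encodes thrombospondin 2, had 113 to 149 reads in X2-PDPN and 1 to 5 in CCR7-PDPN of batch 2. Its log2 change between them was -5.21 (SE 0.23, edgeR adjusted p = 1.35e-23). PDPN-negative CCR7 cells did not share this low level: their mean Thbs2 was 2.644 CPM, with X2 of the same batch at 2.201. Mean CPM for CCR7-PDPN was 0.1139 (batch 1) and 0.1032 (batch 2). The X2 mean of batch 2 was 2.54 CPM, below the X2-PDPN mean of 4.108. Among the 4 derivatives, only CCR7-PDPN had low Thbs2, and the cause was not tested. Serpinf1, which encodes pigment epithelium-derived factor, was higher than in X2 in X2-PDPN by 2.16 (SE 0.07, edgeR adjusted p = 2.06e-27) and in CCR7 by 1.57 (SE 0.10, edgeR adjusted p = 4.12e-10).

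Of 15 hypoxia-inducible genes, 14 were tested in X2-PDPN against X2, and by adjusted p 7 were higher and 4 lower, where 56.8% of all genes passed in either direction, with a median of 0.06 against 0.00 over all genes. Ca9, carbonic anhydrase 9, was the gene called, at 2.14 on the log2 scale (SE 0.11, edgeR adjusted p = 3.18e-20). None of the 7 oxygen-sensing genes tested (of 9, Hif1a and Vhl among them) passed both limits, which 5.05% of all genes passed. By adjusted p alone, 2 of them were higher and 3 lower. Egln3 had a group mean of 109.8 CPM in X2 and 203.2 CPM in X2-PDPN. Vegfa, itself a hypoxia target, was at -0.02 in that comparison.

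**Figure D5:**
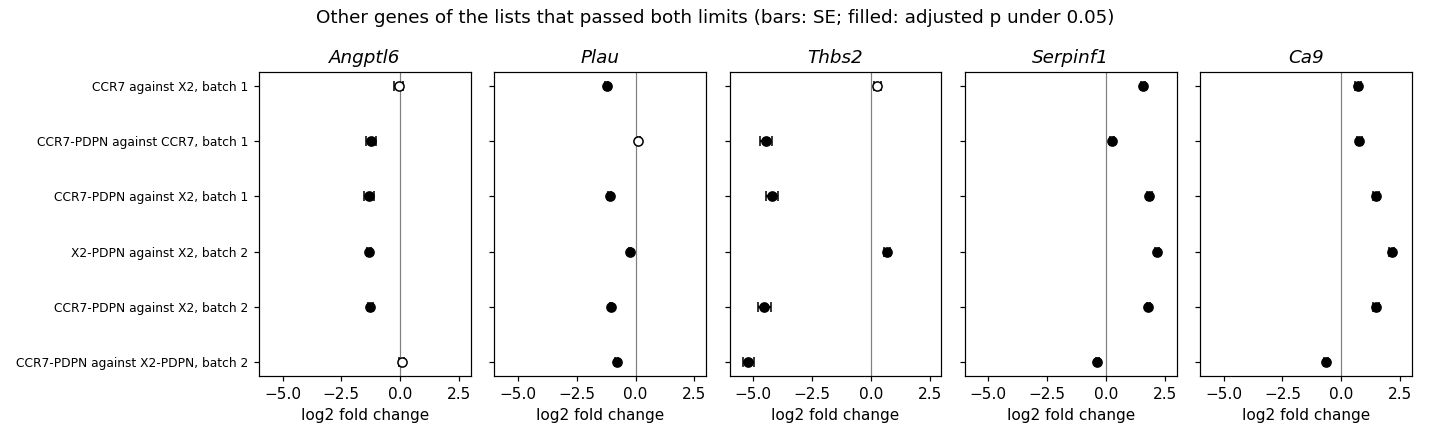
Log2 fold change (x axis) of Angptl6, Plau, Thbs2, Serpinf1 and Ca9 in the 6 comparisons within a batch (y axis), with SE bars, filled where the edgeR adjusted p is under 0.05. Thbs2 reaches -5.21 in CCR7-PDPN against X2-PDPN.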

How the data were processed

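Polyadenylated RNA was sequenced in 24 libraries in single-end mode with 75-base reads from a stranded kit. The authors deposited raw read counts for Ensembl genes (GRCm38), not normalized, as a separate table for each batch. Every gene of the batch 2 table reaches 10 counts in a library; its filter is not given in the sources used here, and the aligner and strand setting are likewise not given. Counts were compared within batch with edgeR 4.0.16 in R 4.3.3 (TMM factors, filterByExpr, robust quasi-likelihood fit over 3 groups, Benjamini-Hochberg adjustment over 13261 or 13314 genes), and between batches over 13690 genes and 24 libraries. Genes were called where the adjusted p was below 0.05 and the log2 fold change beyond 1 in size. The SE is the absolute log2 change over the root of F. TPM used the authors' gene lengths. DESeq2 1.42.0, other factors and filters, a replicate block and each library left out were alternatives. Named genes were the members, listed genes that passed both limits at a mean log2 CPM of at least 0, receptors, the 3 genes most like a called member, and Ccr7 and Pdpn. Some other listed genes and markers were named for context with their values known. The members and lists were chosen with earlier results of these data known. The fit was tested on simulated data in which all genes had the same spread, which real libraries need not share. Earlier limits on false calls were not met in batch 2. A later limit, on the mean over more draws, was met, and the fit was not changed. Figures used Python 3.11.15 and matplotlib 3.10.9.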

Additional observations from a re-analysis of the deposited data

Results flagged for a closer look

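Of 37 sets of 4 libraries of a member, 4 held a library whose gap to the nearest other exceeded Dixon's 95% critical share of the whole range, where chance gives about 1 in 20. Vegfb in X2-PDPN replicate 4 was at 63.7 CPM, against 59.46 to 60.07 in the others. Angptl2 in X2 replicate 1 of batch 1 was at 283.4 CPM against 276.8 to 277.4, and in X2 replicate 3 of batch 2 at 270.4 CPM against 277.4 to 278.7. Angptl4 in CCR7-PDPN replicate 2 of batch 1 was at 4.901 CPM against 3.800 to 3.928. The PDPN difference with CCR7 minus that without CCR7 was past the edgeR adjusted p threshold for Vegfb, at 0.31, and Angptl2, at 0.43, on the log2 scale. The batches differ between the sides of that contrast.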

How the results depend on the processing

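Of 356 recomputed counts of members, 342 stayed within 1.5 times the reported count. With no filter on low counts, Vegfc was added and the count passing both limits was 2 in CCR7 against X2 and 1 in CCR7-PDPN against X2 of batch 1. Leaving out single libraries, that count ranged from 0 to 1 in CCR7-PDPN against CCR7 (1, Angpt2, without CCR7 replicate 4 or CCR7-PDPN replicate 1) and in X2-PDPN against X2 (1, Angpt2, without X2 replicate 4 or X2-PDPN replicate 3). The count at an adjusted p under 0.05 in CCR7 against X2 was 2 rather than 4 under DESeq2 and under the replicate block, and ranged from 2 to 4 with a library left out, Pgf and Angpt2 being lost without X2 replicate 1 or 3 or CCR7 replicate 2 or 3. In CCR7-PDPN against X2 of batch 2 it ranged from 1 to 3, being 1 without X2 replicate 2 or CCR7-PDPN replicate 2. The cause was not tested. Replicate numbers did not pair the libraries: the correlations of same-numbered libraries ranged from -0.26 to 0.263, and 6 of 24 exceeded 0.1.

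Of 1042 recomputed differences of single members, 972 kept direction and side, 39 lost the threshold, 9 gained it and 22 turned sign, all 22 with a library left out and an adjusted p of at least 0.53. The left-out ranges were -0.3403 to 0.0801 for Angpt2 (CCR7-PDPN against X2-PDPN, batch 2), -0.191 to 0.236 for Angpt2 (PDPN difference with CCR7 (batch 1) minus without CCR7 (batch 2)), -0.0855 to 0.061 for Angptl4 (CCR7-PDPN against X2, batch 1), -0.1125 to 0.2351 for Pgf (CCR7-PDPN against CCR7, batch 1), -0.0584 to 0.1538 for Pgf (CCR7-PDPN against X2-PDPN, batch 2), -0.0154 to 0.0612 for Vegfa (CCR7-PDPN minus X2, batch 1 minus batch 2), -0.0624 to 0.0022 for Vegfa (X2-PDPN against X2, batch 2), -0.0154 to 0.0461 for Vegfb (CCR7 against X2, batch 1). Angptl2 in CCR7 against X2 ranged from -1.25 to -1.21. Low counts limit Pgf, Angpt2 and Vegfc.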
